A study of Mus musculus with 13 samples.

Results

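The 10 genes of autophagy and mitophagy examined in mouse gastrocnemius muscle were Map1lc3a, Map1lc3b, Gabarap, Gabarapl1, Sqstm1, Bnip3, Bnip3l, Ulk1, Becn1 and Wipi1. They were chosen by name for their roles in the pathway, with earlier results of these data known. They are 10 of the 21868 genes in the table of normalized counts, and each was followed across the 3 treatment groups. Bnip3 and Gabarap were higher in semaglutide-treated mice than in vehicle-treated mice, with ratios of mean normalized counts of 1.96 and 1.39, and both were lower in mice that also received the ketone ester, with ratios of 0.475 and 0.690 to semaglutide alone. The other 8 genes did not pass the test in any comparison. Among them were Ulk1, Becn1 and Wipi1, which act at the start of autophagosome formation, and later-acting genes such as Map1lc3b and Sqstm1. Of all genes tested, 25.1% passed with semaglutide against vehicle and 18.4% on adding the ketone ester, so 2 of 10 lies close to the background.

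All mice were male C57BL/6 mice, C57BL/6N for the sequenced muscles per the study's figure legends, that arrived at 7 weeks of age, were made obese on a diet with 60% of kilocalories from fat for 15 to 17 weeks and were then moved to chow for 3 weeks of treatment. The 5 vehicle-treated mice received PBS and placebo. The 5 semaglutide-treated mice received semaglutide, an agonist of the GLP-1 receptor that lowers food intake, at 30 nM/kg per day by intraperitoneal injection, with placebo. The 3 semaglutide + ketone ester-treated mice received the same semaglutide together with a ketone ester dissolved in their water at 0.114 g/mL, which the body breaks down to ketone bodies. Each library was made from the gastrocnemius of 1 mouse, so that the mouse was the replicate, and the comparison of the groups asked how the muscle transcriptome changed during weight loss and whether the ketone ester altered that change.

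Autophagy delivers cell contents to the lysosome inside a double membrane, the autophagosome, and mitophagy does the same for mitochondria. The ULK1 kinase starts the process, the lipid kinase complex around Beclin 1 marks the membrane, WIPI proteins read that mark, and proteins of the LC3 and GABARAP families are then attached to the growing membrane, where they bind cargo receptors such as p62 (Sqstm1) and the mitochondrial receptors BNIP3 and NIX (Bnip3l). In skeletal muscle several of these genes are known targets of FoxO transcription factors during fasting and atrophy. The level of an mRNA does not measure the flow of material through the pathway.

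Gene-assigned reads ranged from 15319471 to 23498162 per mouse, with 498 to 26834 reads on each of the 10 genes, so that all 10 passed the filter of a mean of at least 10 normalized counts, as did 12303 genes in all. Semaglutide mouse 13 stood apart from its group. On the first principal component of all genes tested, which held 38.1% of the variance, its score was -9.12, while the other 4 semaglutide-treated mice scored 31.8 to 52.5, the vehicle-treated mice -24.5 to -12.9 and the semaglutide + ketone ester-treated mice -25.6 to -15.8. The tests of the 10 genes and of the other autophagy genes were therefore also calculated without mouse 13, while the marker tests and the likeness ranking were not. Nothing in the labels sets this mouse apart. It was left out because of these same expression values, so the results without it are descriptive and not independent support. The same holds where the other 4 are set against the remaining mice, and the share of all genes with that separation was not calculated.

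The sequence upstream of the gene with the largest change is shown because it held the only E-box found among the matched genes. RefSeq promoter windows (GRCm38.p6) were matched for 7 of the 10 genes, and the 250 bases before the annotated start were searched on both strands for 4 motifs, TGTTTAC (FoxO), CACGTG (an E-box bound by TFEB and TFE3, regulators of lysosomal genes), ACGTG (the core of the hypoxia response element, contained in the E-box) and TGATGNAA (a composite element of ATF4). Among 32851 promoter windows, 3.17% held the first, 6.02% the second, 16.6% the third and 3.45% the last. The window of Bnip3, on the reverse strand of chr7:138909507-138909756, had a GC content of 72.4% and held CACGTG with its first base 108 bases before the start, marked in capitals. The last 13 of its bases lie within Bnip3 as GENCODE M21 annotates it.
Bnip3 promoter window: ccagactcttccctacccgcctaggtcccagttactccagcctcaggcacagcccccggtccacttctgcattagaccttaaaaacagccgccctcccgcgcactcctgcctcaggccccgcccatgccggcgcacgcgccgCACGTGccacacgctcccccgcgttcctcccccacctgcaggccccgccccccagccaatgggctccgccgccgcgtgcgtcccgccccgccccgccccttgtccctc

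In Gabarap, ACGTG was found on the strand opposite to the gene, 108 bases before the RefSeq start, and is marked in capitals as CACGT in the stretch of 29 bases at chr11:69991250-69991278, forward strand. GENCODE M21 starts Gabarap further upstream, so that all 29 bases of this stretch lie within the gene, from 107 bases after its start. The other 5 windows, of Map1lc3b, Gabarapl1, Sqstm1, Ulk1 and Wipi1, held none of the 4 motifs. The Wipi1 window, chr11:109611390-109611639, lies wholly within the gene in GENCODE M21, which starts it at 109611967 on the reverse strand. The windows of Map1lc3b, Gabarapl1, Sqstm1 and Ulk1 overlap their GENCODE genes in part. A match is a description of the letters only.
Gabarap upstream stretch: tcagcgtagaaaCACGTctcatgaaatcc

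The 10 genes differed widely in level. Per kilobase of exon, with all annotated exons of a gene merged, Sqstm1 was the highest in vehicle-treated mice at 3266 ± 94.9 normalized counts per kilobase (SD, n = 5), followed by Map1lc3a at 2384 ± 188, Bnip3 at 1245 ± 97.2, Gabarap at 1056 ± 32.1 and Gabarapl1 at 553 ± 122. Ulk1 at 332 ± 14.0 and Map1lc3b at 332 ± 12.0 normalized counts per kilobase did not differ beyond their spread. Wipi1 at 278 ± 26.7, Bnip3l at 216 ± 9.03 and Becn1 at 152 ± 5.61 normalized counts per kilobase were the lowest. The long merged exons of Map1lc3b, 7517 bases, and of Becn1, 7065 bases, lower these values if the muscle uses shorter transcripts.

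**Figure D1:**
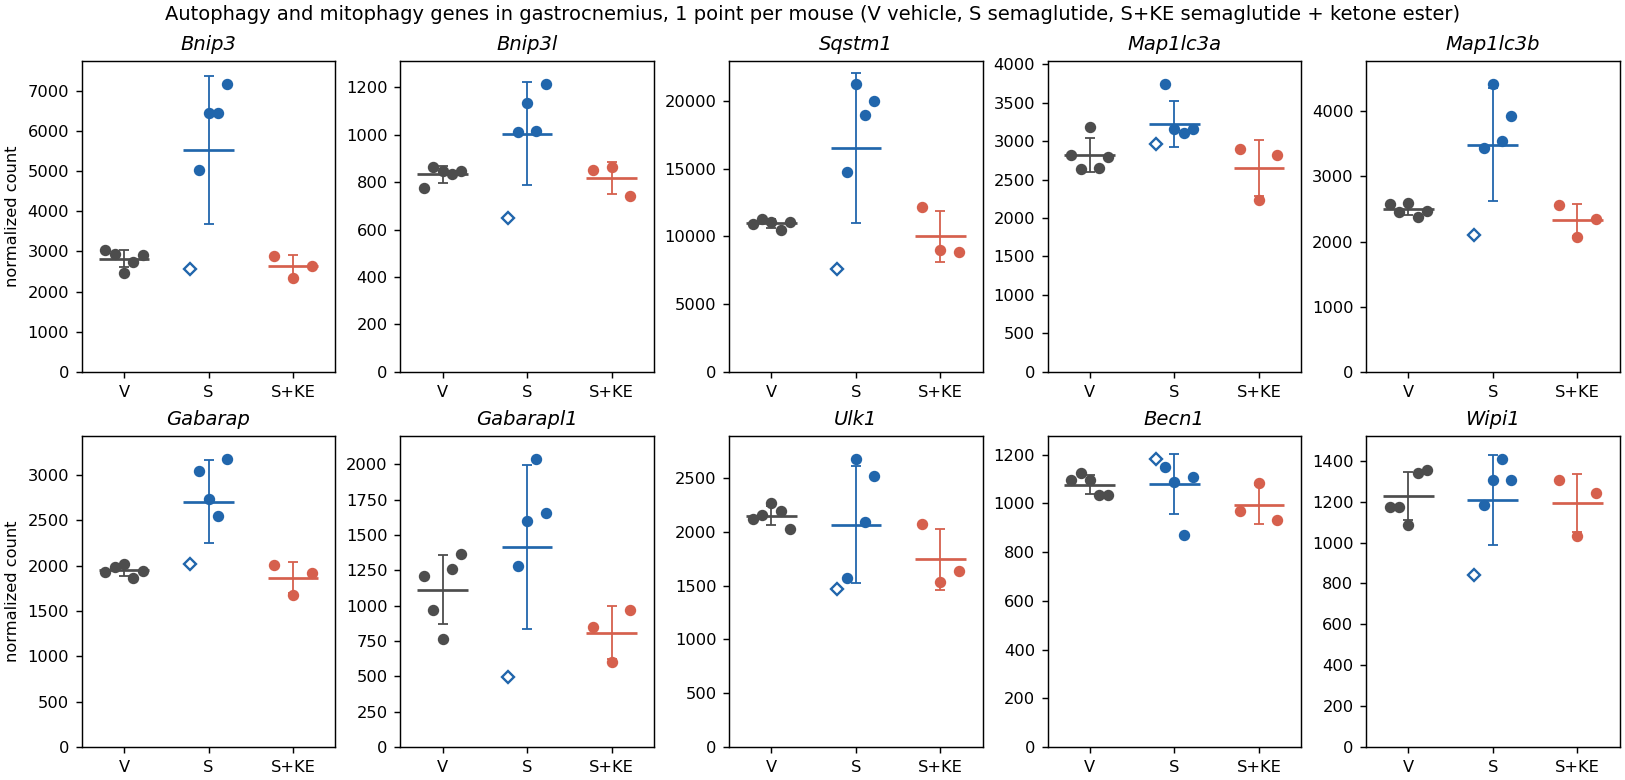
Normalized counts (vertical axis, linear, from 0) of the 10 genes in each mouse of the vehicle (V, n = 5), semaglutide (S, n = 5) and semaglutide + ketone ester (S+KE, n = 3) groups, with bars for the mean and SD and an open diamond for semaglutide mouse 13. In Bnip3 the 4 other semaglutide-treated mice lie between 5036 and 7163 normalized counts, above every mouse of the other groups, while mouse 13 lies at 2549.

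The mitochondrial receptors came first. Bnip3 (ENSMUSG00000078566.8, reverse strand of chr7:138890836-138909519) encodes an outer membrane protein that tethers mitochondria to LC3 and is induced by low oxygen and by FoxO3 in muscle. Its normalized counts were 3026, 2941, 2472, 2743 and 2920.1 in vehicle mice 1 to 5. They were 2549, 5036, 6437, 6440.3 and 7163 in semaglutide mice 13 to 17, and 2891, 2339.8 and 2643 in semaglutide + ketone ester mice 19, 21 and 22. The 4 semaglutide-treated mice other than mouse 13 were above all mice of the other groups, whereas mouse 13 lay within the vehicle range. Bnip3 was higher with semaglutide than with vehicle by 0.89 ± 0.23 on the log2 scale (SE, 95% confidence interval 0.38 to 1.39, limma, adjusted p = 0.017). With the ketone ester added it was lower than with semaglutide alone, by a log2 fold change of -0.99 ± 0.27 (SE, interval -1.57 to -0.41, limma, adjusted p = 0.024). Leaving out semaglutide mouse 15 or 17, or ketone ester mouse 21 or 22, ended the second call, with limma adjusted p of up to 0.096 over all alternatives. Without mouse 13 the log2 fold changes were 1.14 (limma, adjusted p = 4.5e-05) and -1.25 (limma, adjusted p = 9.2e-05).

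Bnip3l (ENSMUSG00000022051.15, reverse strand of chr14:66985239-67008877), which encodes NIX, the receptor that clears mitochondria from maturing red cells, moved less. Vehicle mice had 774, 864, 846, 835 and 845 normalized counts, semaglutide mice 13 to 17 had 651, 1011, 1134, 1017 and 1214, and the ketone ester mice had 850.2, 865 and 741. As for Bnip3, 4 of 5 semaglutide-treated mice were above all others and mouse 13 was below all of them. The log2 fold changes were 0.24 ± 0.14 (SE, interval -0.07 to 0.55, limma, adjusted p = 0.24) with semaglutide and -0.27 ± 0.16 (interval -0.63 to 0.09, limma, adjusted p = 0.27) on adding the ketone ester. Neither passed the test. Without mouse 13 they were 0.39 (limma, adjusted p = 0.0036) and -0.42 (limma, adjusted p = 0.0060), and both did.

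Because the ratio of 2 genes within a mouse does not depend on how its library was scaled, the receptors were also compared in that way. The ratio of Bnip3 to Bnip3l normalized counts was 2.92 to 3.91 in vehicle-treated mice, 3.92 in semaglutide mouse 13, 4.98 to 6.33 in the other 4 semaglutide-treated mice and 2.71 to 3.56 with the ketone ester. The 5 semaglutide-treated mice thus did not overlap with either other group, although mouse 13 exceeded the highest vehicle-treated mouse by very little. These ratios were chosen with the values known and are given without a test.

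The receptor for protein cargo, Sqstm1 (ENSMUSG00000015837.15, reverse strand of chr11:50199366-50210827), encodes p62, which binds ubiquitin and LC3 and is itself degraded by autophagy. It had 10915, 11298, 11057, 10446 and 11085 normalized counts in vehicle mice 1 to 5. The counts were 7626, 14754, 21250, 18978 and 20016 in semaglutide mice 13 to 17 and 12189, 9030.4 and 8849.6 in the ketone ester mice. The 4 other semaglutide-treated mice were above all mice of the remaining groups, and mouse 13 was the lowest of all 13 mice. With mouse 13 included, the SD rose from 319 in vehicle-treated to 5542 normalized counts in semaglutide-treated mice. The log2 fold changes of 0.50 ± 0.24 (SE, interval -0.01 to 1.02, limma, adjusted p = 0.13) and -0.65 ± 0.27 (interval -1.24 to -0.06, limma, adjusted p = 0.11) did not pass the test. Without mouse 13 they were 0.76 (limma, adjusted p = 0.00075) and -0.91 (limma, adjusted p = 0.00074).

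In the LC3 family, Map1lc3b (ENSMUSG00000031812.16, forward strand of chr8:121590361-121598760) encodes LC3B, whose lipid-bound form is the usual marker of autophagosomes. Vehicle-treated mice had 2583, 2462, 2585, 2374 and 2462.5 normalized counts, semaglutide mice 13 to 17 had 2094, 3441, 4418, 3546 and 3930.3, and ketone ester mice had 2563, 2074 and 2348. Mouse 13 lay below every vehicle-treated mouse and the other 4 lay above every mouse of both other groups. The log2 fold changes were 0.44 ± 0.16 (SE, interval 0.09 to 0.80, limma, adjusted p = 0.068) and -0.54 ± 0.19 (interval -0.96 to -0.13, limma, adjusted p = 0.063). Neither passed the test, and without mouse 13 both did, at 0.61 (limma, adjusted p = 0.00048) and -0.72 (limma, adjusted p = 0.00056).

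Map1lc3a (ENSMUSG00000027602.9, forward strand of chr2:155276297-155278073), which encodes the related LC3A, had 2633 to 3184 normalized counts in vehicle-treated mice, 2957 to 3742 with semaglutide and 2229 to 2903 with the ketone ester. Semaglutide mouse 13, at 2957, lay within the vehicle range, as did 3 others of its group. The log2 fold changes were 0.20 ± 0.10 (SE, interval -0.02 to 0.41, limma, adjusted p = 0.16) and -0.29 ± 0.11 (interval -0.53 to -0.04, limma, adjusted p = 0.093), and neither passed the test with or without mouse 13. All 3 ketone ester-treated mice were below all 5 semaglutide-treated mice, an absence of overlap in this direction that 10.2% of all genes tested showed. The ratio of Map1lc3b to Map1lc3a normalized counts was 0.812 to 0.935 in vehicle-treated mice, 0.708 and 0.920 in semaglutide mice 13 and 14, 1.14 to 1.40 in semaglutide mice 15 to 17 and 0.831 to 0.931 with the ketone ester.

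Gabarap (ENSMUSG00000018567.14, forward strand of chr11:69991143-69994951), the founding gene of the GABARAP family whose products act in the closure of autophagosomes and their fusion with lysosomes, was the other member called in both comparisons. Its normalized counts were 1928, 1988, 2016, 1862 and 1944 in vehicle-treated mice. They were 2018, 3047, 2737, 2541 and 3172 in semaglutide mice 13 to 17 and 2004, 1672 and 1923 in the ketone ester mice. All 5 semaglutide-treated mice were above all mice of the other groups, but mouse 13, at 2018, exceeded vehicle mouse 3, at 2016, only slightly. The share of all genes tested with no overlap was 7.22% in this direction against vehicle and 10.2% for the ketone ester mice below semaglutide. Gabarap was higher with semaglutide than with vehicle by 0.46 ± 0.11 on the log2 scale (SE, interval 0.21 to 0.70, limma, adjusted p = 0.014) and had a log2 fold change of -0.52 ± 0.13 on adding the ketone ester (interval -0.81 to -0.23, limma, adjusted p = 0.019). Leaving out ketone ester mouse 21 or 22 ended the second call (limma, adjusted p of up to 0.093). Without mouse 13 the log2 fold changes were 0.56 (limma, adjusted p = 0.00056) and -0.62 (limma, adjusted p = 0.00083).

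Gabarapl1 (ENSMUSG00000030161.8, forward strand of chr6:129533160-129542346), a close relative of Gabarap, varied most among mice, with a coefficient of variation of 22.0% within the vehicle group. It had 1211, 968, 761, 1257 and 1367 normalized counts in vehicle-treated mice, 495, 1280.2, 1599.6, 2035 and 1653 in semaglutide mice 13 to 17, and 849, 602 and 969 with the ketone ester. Of the 5 semaglutide-treated mice, 3 exceeded all vehicle-treated mice, and mouse 13 was the lowest of all 13. The log2 fold changes were 0.23 ± 0.33 (SE, interval -0.49 to 0.95, limma, adjusted p = 0.64) and -0.69 ± 0.38 (interval -1.52 to 0.14, limma, adjusted p = 0.22), and neither passed the test. Without mouse 13 they were 0.57 (limma, adjusted p = 0.045) and -1.03 (limma, adjusted p = 0.0057). The ratio of Gabarapl1 to Gabarap overlapped between all groups, at 0.378 to 0.703 with vehicle, 0.245 to 0.801 with semaglutide and 0.360 to 0.504 with the ketone ester.

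The 3 genes that act earlier showed no such pattern. Ulk1 (ENSMUSG00000029512.11, reverse strand of chr5:110784488-110810097), the kinase that starts autophagy, had 2025 to 2272 normalized counts with vehicle and 1466, 1571, 2676, 2095 and 2519 in semaglutide mice 13 to 17. Here 2 semaglutide-treated mice were below and 2 were above all vehicle-treated mice, and the log2 fold change was -0.10 (interval -0.45 to 0.25, limma, adjusted p = 0.69). The ketone ester-treated mice had 2069.6, 1535 and 1634 normalized counts, a log2 fold change of -0.21 from semaglutide (interval -0.62 to 0.20, limma, adjusted p = 0.46). Becn1 (ENSMUSG00000035086.13, reverse strand of chr11:101285952-101302286), which encodes Beclin 1 of the lipid kinase complex, had 1036 to 1124 normalized counts with vehicle, 871 to 1182 with semaglutide and 933 to 1084 with the ketone ester. Its log2 fold change with semaglutide was -0.0032 (interval -0.20 to 0.19, limma, adjusted p = 0.98), so that this interval holds no change beyond 0.20 in either direction.

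Wipi1 (ENSMUSG00000041895.15, reverse strand of chr11:109573331-109611967), which binds the lipid that the Beclin 1 complex makes, had 1086 to 1358 normalized counts with vehicle, 839 in semaglutide mouse 13, 1183 to 1408 in the other 4 and 1033 to 1306 with the ketone ester. Its log2 fold change with semaglutide was -0.04 (interval -0.34 to 0.26, limma, adjusted p = 0.87). The small negative values of Ulk1, Becn1 and Wipi1 changed sign when the libraries were rescaled to equal totals, to 0.07, 0.17 and 0.14, and none of these passed the test. For Becn1 the change from semaglutide to semaglutide + ketone ester, -0.11 (limma, adjusted p = 0.48), became -0.35 (limma, adjusted p = 0.0064) under that rescaling. Equal totals moved the median of all genes tested by 0.17 for semaglutide against vehicle and by -0.24 for the addition of the ketone ester.

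**Figure D2:**
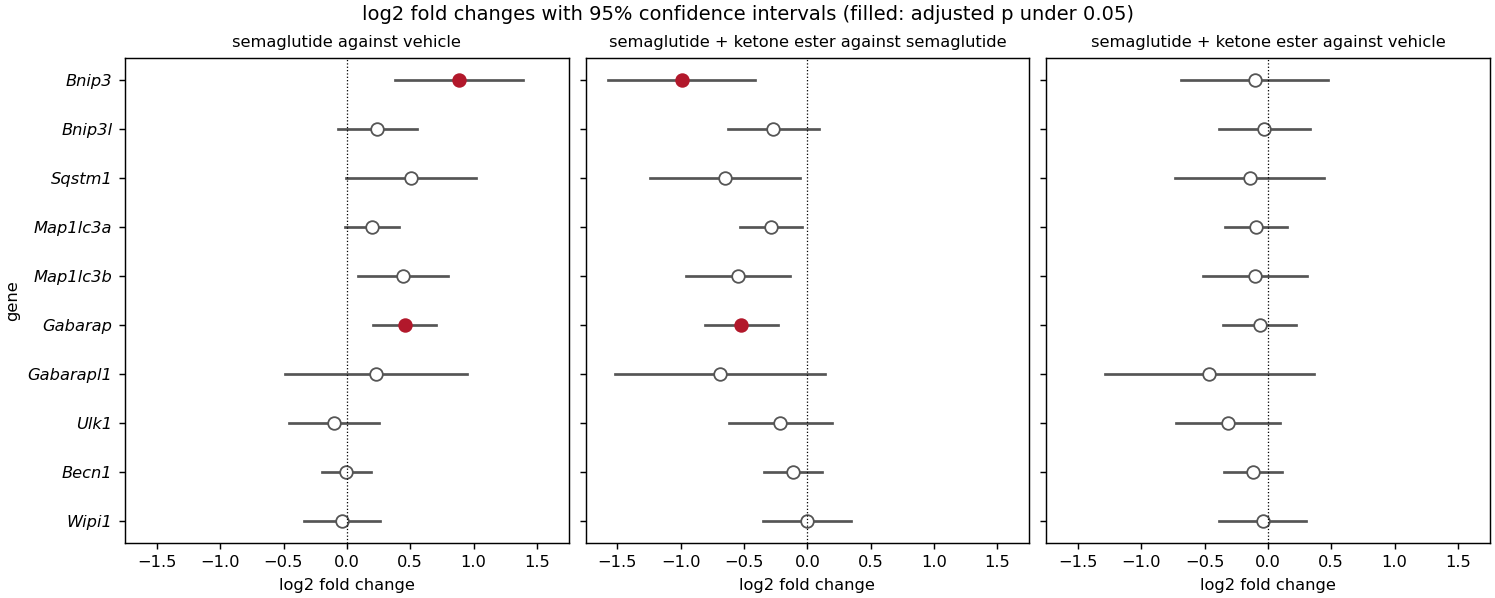
The log2 fold change (horizontal axis) of each of the 10 genes in the 3 comparisons, with 95% confidence intervals as lines and filled points for a limma adjusted p under 0.05. Bnip3 and Gabarap are filled in the first and second comparisons, and every interval of the third spans 0.

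Counted over the 10 genes, 2 were called higher and 0 lower with semaglutide against vehicle by limma with the threshold of 0.05 on the adjusted p, and 3 passed 0.05 before adjustment. Of all genes tested, 25.1% were called in either direction in this comparison and 11.9% were called higher, so that the members' share lies close to the background. The median log2 fold change was 0.24 over the 10 genes and -0.0029 over all genes tested. With edgeR or DESeq2 on the recovered reads 4 of the 10 were called, with Map1lc3b and Sqstm1 beside Bnip3 and Gabarap, where 14.4% and 15.1% of all genes were called higher by these tools. Without mouse 13, 6 of the 10 were called higher, where 17.3% of all genes tested were, and the members' median log2 fold change was 0.47.

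On adding the ketone ester to semaglutide, 2 of the 10 were called lower and 0 higher by limma, and 5 passed 0.05 before adjustment. The background was 18.4% of all genes tested in either direction and 9.3% lower. All 10 log2 fold changes were negative, from -0.0033 in Wipi1 to -0.99 in Bnip3, with a median of -0.40 beside -0.00024 over all genes tested. The sign of Wipi1 flipped under quantile normalization and when some single mice were left out. This comparison shares the 5 semaglutide-treated mice with the one before, so that opposite signs in the 2 are not independent results. Without mouse 13, 6 of the 10 were called lower, where 16.2% of all genes tested were. These were the same 6 as against vehicle, namely Bnip3, Bnip3l, Sqstm1, Map1lc3b, Gabarap and Gabarapl1.

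Between semaglutide + ketone ester-treated and vehicle-treated mice, 0 of the 10 genes were called by limma, edgeR or DESeq2, and 0 had an unadjusted p under 0.05 in limma, while 0.236% of all genes tested were called by limma, 0.366% by edgeR and 1.4% by DESeq2. All 10 log2 fold changes were negative, between -0.46 in Gabarapl1 and -0.03 in Bnip3l, with limma adjusted p of 0.64 to 0.98. The signs of Map1lc3a, Gabarap, Bnip3l and Wipi1 changed when some single mice were left out, and that of Wipi1 also under quantile normalization. With 3 ketone ester-treated mice the intervals stayed wide, from -0.69 to 0.47 for Bnip3 and from -0.35 to 0.22 for Gabarap. A criterion patterned on the study's methods was read here as an unadjusted p under 0.05 over the 3 groups with a ratio of at least 1.5 between the extreme group means, since adjustment and the pair behind the fold are not stated. It marked Bnip3 and Sqstm1, 2 of 10, and 16.1% of all genes tested.

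**Figure D3:**
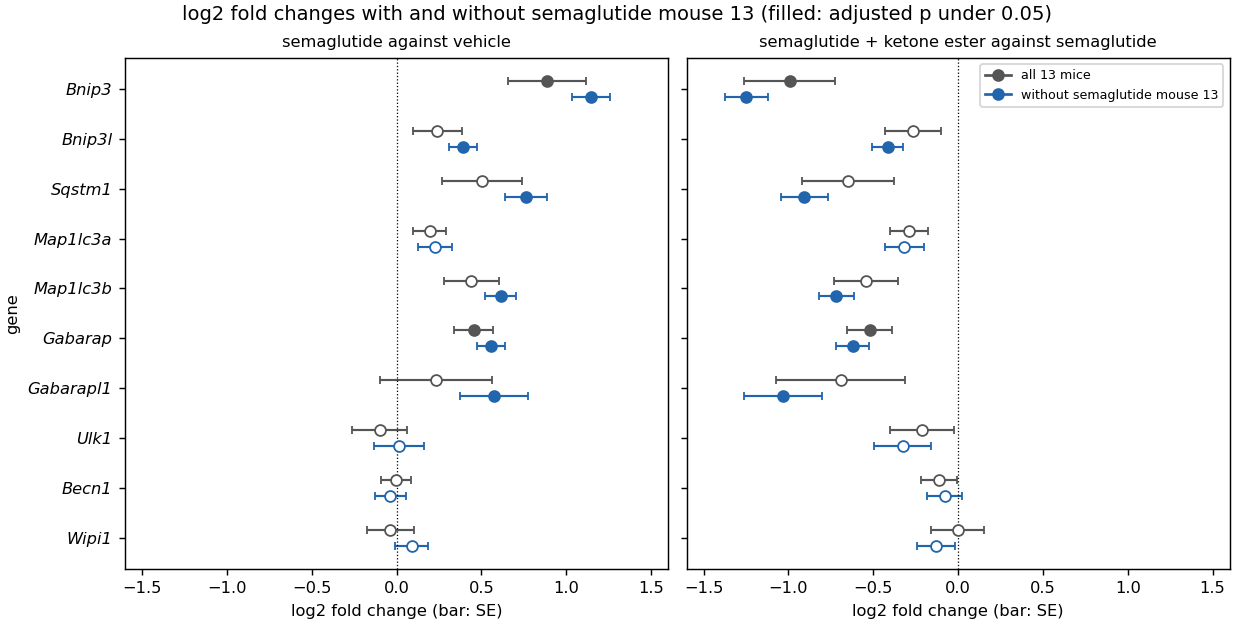
The log2 fold change (horizontal axis, bars for the SE) of each gene with all 13 mice in grey and without semaglutide mouse 13 in blue, filled for a limma adjusted p under 0.05. Without mouse 13, 6 genes are filled in both comparisons where 2 were filled with it, and Ulk1, Becn1, Wipi1 and Map1lc3a are unfilled in both.

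The genes whose pattern over the 13 mice lay closest to that of Bnip3, by the root mean square difference in log2 distance from the vehicle mean, were Nop14 (0.116), Ddx27 (0.123), Ugp2 (0.132), Npm1 (0.133) and Cep131 (0.133), where the median of the 12302 other genes tested was 0.716. Nop14, Ddx27 and Npm1 are known for work in ribosome assembly in the nucleolus, and Ugp2 makes the UDP-glucose used for glycogen. Mean normalized counts of Ugp2 were 12160 with vehicle, 24366 with semaglutide and 9762 with the ketone ester. In semaglutide mouse 13 the 5 genes lay between -0.30 and 0.04 from the vehicle mean on the log2 scale, while in the other 4 semaglutide-treated mice they lay between 0.59 and 1.41. No other autophagy gene was among the 5.

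Beyond the 10, 95 other genes of autophagy in 8 lists by role were followed, of which 94 passed the filter. With semaglutide 9 were called higher and 10 lower by limma, 19 of 94, beside the 25.1% of all genes tested, and the median log2 fold change was 0.07. Of all genes tested, 11.9% were called higher and 13.2% lower, so that calls in both directions are not particular to the pathway. In the initiation and lipid kinase lists, Ulk2, a relative of Ulk1, had a log2 fold change of -0.44, and Uvrag, a Beclin 1 partner, one of 0.68 (limma, adjusted p = 0.026). Uvrag had 192 to 300.4 normalized counts with vehicle, 231 in mouse 13, 432 to 483 in the other 4 semaglutide-treated mice and 199 to 259.9 with the ketone ester, so that, as in Bnip3, mouse 13 lay within the vehicle range and the other 4 above it. Atg2b, which feeds lipid to the growing membrane, rose by 0.42 on the log2 scale.

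The conjugation machinery, which processes LC3 and GABARAP and attaches them to the membrane or removes them, had 4 of 12 genes called lower and 0 higher, while 13.2% of all genes tested were called lower. Of the 6 genes at an unadjusted p under 0.05, the 2 not called, Atg4b and Atg16l1, had log2 fold changes of 0.20 and 0.17 and are named after their values were seen. The 4 called were Atg10, a conjugating enzyme, with a log2 fold change of -0.55, Atg12, a ubiquitin-like protein, with -0.53, and the proteases Atg4a with -0.48 and Atg4c with -0.40. None of these 4 was called when the ketone ester was added, where 0 of the 12 genes passed the test in limma and 2 had an unadjusted p under 0.05.

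Of the 13 other cargo receptors only Sec62, a receptor for the endoplasmic reticulum, was called with semaglutide, at a log2 fold change of 0.62, beside the 11.9% of all genes tested that were called higher, and 4 of the 13 were called lower on adding the ketone ester, beside 9.3% of all genes. Of these Retreg1, also a receptor for the endoplasmic reticulum and named after its values were seen, varied widely, with 2929 to 5097 normalized counts with vehicle, 2396 in mouse 13, 6811 to 15323 in the other 4 semaglutide-treated mice and 2177 to 3165 with the ketone ester. Its log2 fold changes were 1.01 with semaglutide (limma, adjusted p = 0.088) and -1.66 with the ketone ester added (limma, adjusted p = 0.030). Without mouse 13 the first was 1.45 and passed the test (limma, adjusted p = 0.00063). Of the 14 other mitophagy receptors and regulators, Phb2, an inner membrane receptor, rose by 0.57 on the log2 scale, while Fundc1, another outer membrane receptor, had a log2 fold change of -0.56. Of these 14 genes, 2 were called higher and 1 lower, beside 11.9% and 13.2% of all genes tested.

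In the list for fusion with the lysosome, Vamp8 and Ykt6, which encode SNARE proteins, had log2 fold changes of -0.68 (limma, adjusted p = 0.00020) and -0.51 with semaglutide. Vamp8 had 332 to 378 normalized counts with vehicle, 206 to 249 with semaglutide and 367 to 400.2 with the ketone ester. Mouse 13, at 239, was with its own group for this gene, unlike for Bnip3 and Sqstm1. Lamp2, a protein of the lysosomal membrane, and Epg5, a tethering factor, were higher by 0.53 and 0.42 on the log2 scale. For Lamp2, mouse 13, at 1144, lay below the vehicle range of 1152 to 1388, and the other semaglutide-treated mice had 1952 to 2248. For Epg5, mouse 13, at 850, lay slightly above the highest vehicle-treated mouse, at 834. Of the 16 genes of this list, 3 were called higher and 2 lower, beside 11.9% and 13.2% of all genes tested.

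**Figure D4:**
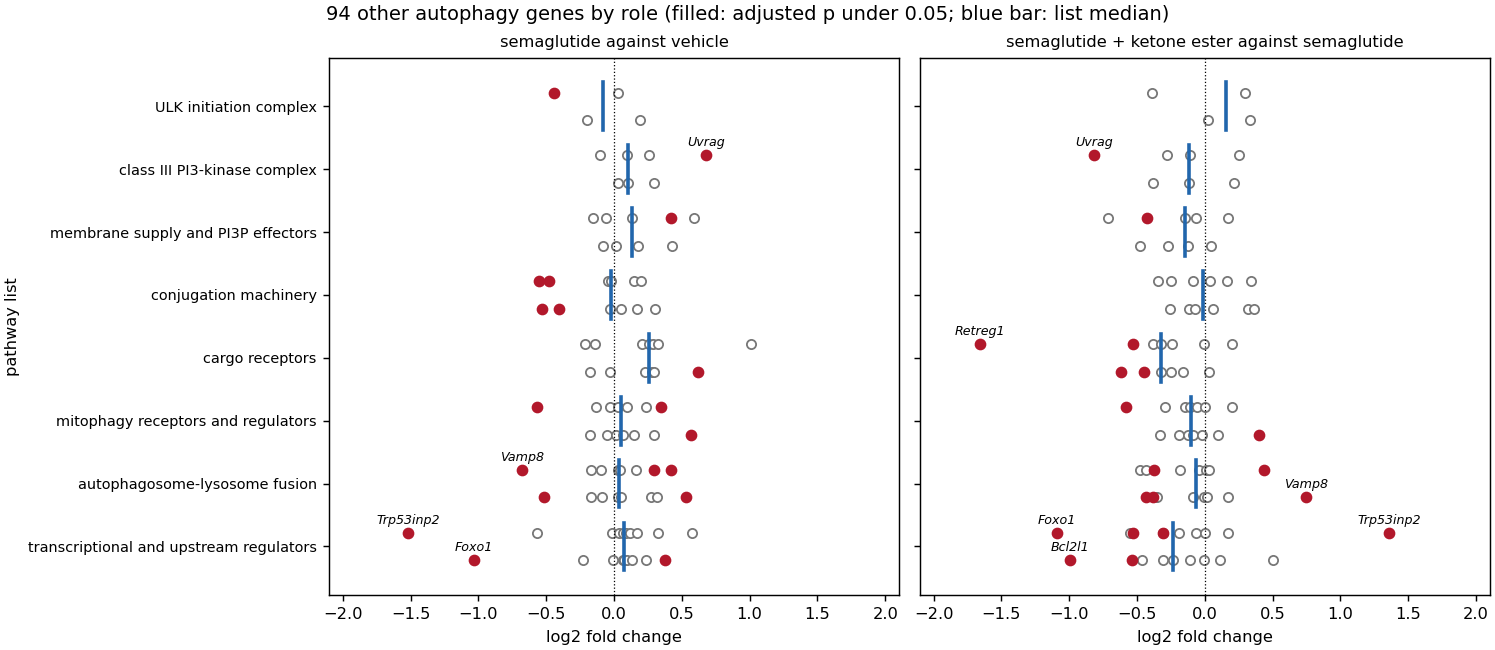
The log2 fold change (horizontal axis) of 94 other autophagy genes by role list (vertical axis), filled for a limma adjusted p under 0.05, with a blue bar at each list's median and names for called genes beyond 0.65. With semaglutide the 4 called conjugation genes lie between -0.55 and -0.40, and on adding the ketone ester the 4 called cargo receptors are all below 0, with Retreg1 at -1.66 (Retreg1 and Bcl2l1 were named after their values were seen).

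Among regulators, Trp53inp2, a nuclear protein that brings LC3 to the autophagosome, fell with semaglutide by 1.52 on the log2 scale (limma, adjusted p = 0.0023), from a mean of 10551 normalized counts with vehicle to 7196, 5385, 2682, 2624 and 2483 in semaglutide mice 13 to 17, and was higher by 1.36 with the ketone ester added (limma, adjusted p = 0.012). Foxo1, the transcription factor of the fasting response, was lower still with the ketone ester. It had 2745, 2285, 1269.5, 1237 and 1175 normalized counts in vehicle mice 1 to 5, 621 to 1122 with semaglutide and 553, 302 and 312 with the ketone ester. Its log2 fold change was -1.03 with semaglutide (limma, adjusted p = 0.018), -1.09 from semaglutide to semaglutide + ketone ester (limma, adjusted p = 0.033) and -2.12 between semaglutide + ketone ester and vehicle (limma, adjusted p = 0.028). It was the only one of the 94 genes called in the last comparison. That call was lost without vehicle mouse 1, 2 or 3, without ketone ester mouse 21 or 22, with no filter and with only the 2 groups in the fit (limma, adjusted p of up to 0.16), with log2 fold changes between -2.41 and -1.94 over all 26 alternatives. Tsc1, a brake on mTORC1, was higher with semaglutide by 0.38.

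Without mouse 13, 31 of the 94 other genes were called higher and 11 lower with semaglutide against vehicle, where 17.3% and 18.9% of all genes tested were. On adding the ketone ester 7 were called higher and 30 lower, where 16% and 16.2% of all genes tested were. Rescaling to equal totals gave 33 higher and 7 lower (26.5% and 7.55% of all genes tested) and then 2 higher and 48 lower (4.97% and 29.2%), a shift that this scaling gave all genes alike.

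**Figure D5:**
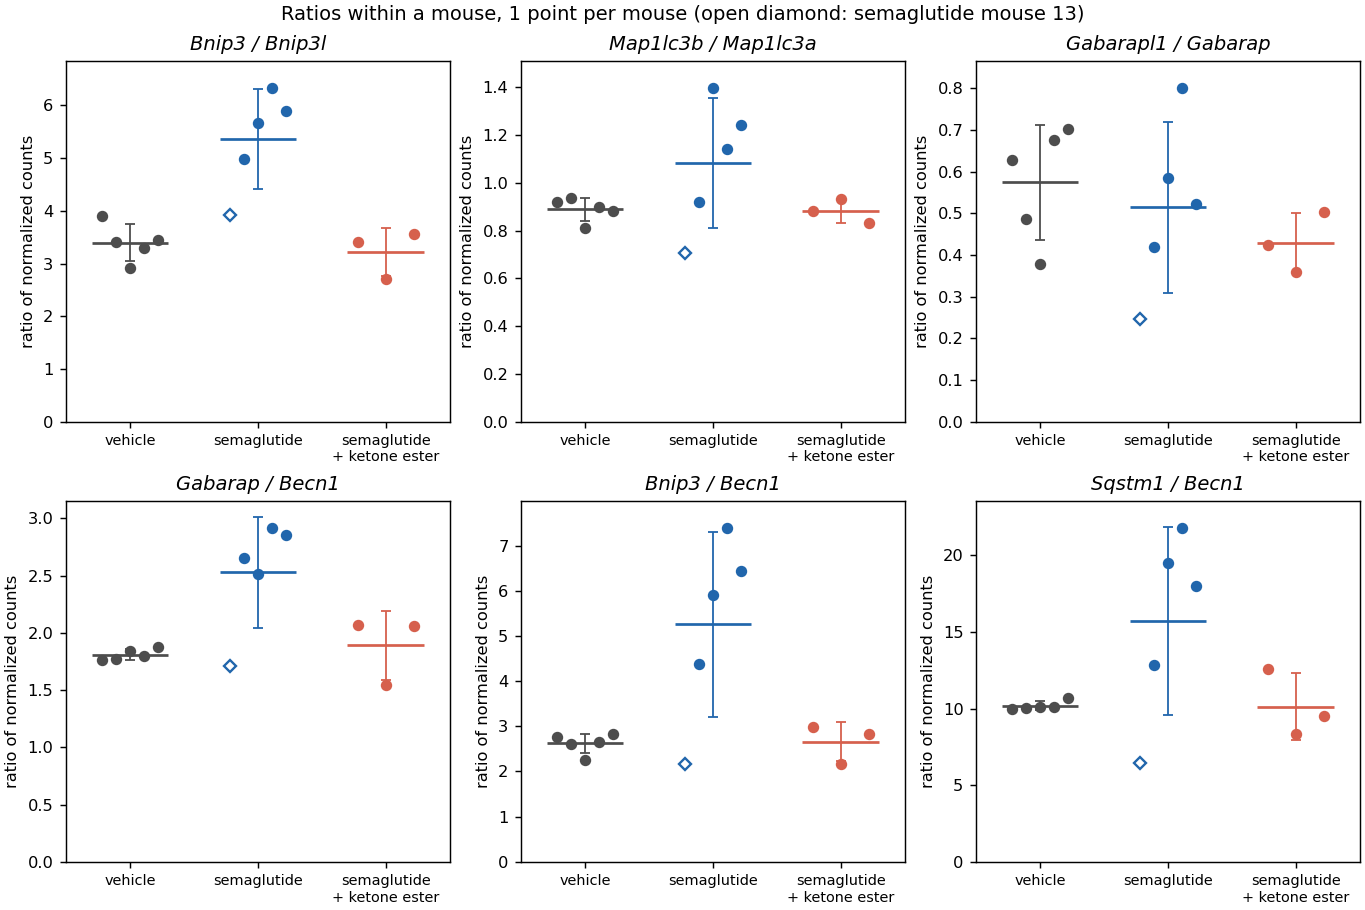
Ratios of normalized counts of 2 genes within each mouse (vertical axes from 0), by group, with bars for the mean and SD and an open diamond for semaglutide mouse 13. For Bnip3 to Becn1 the 4 other semaglutide-treated mice lie above all mice of the other groups and mouse 13, at 2.16, lies below all vehicle-treated mice.

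Ratios were also taken to Becn1, whose log2 fold change with semaglutide was the nearest to 0 among the 10 genes. The ratio of Sqstm1 to Becn1 was 9.97 to 10.7 with vehicle and 8.33 to 12.6 with the ketone ester. It was 6.45 in mouse 13 and 12.8 to 21.8 in the other semaglutide-treated mice. The ratio of Gabarap to Becn1 was 1.76 to 1.88 with vehicle and 1.54 to 2.07 with the ketone ester. It was 1.71 in mouse 13 and 2.51 to 2.92 in the other semaglutide-treated mice. Both highest ratios were those of mouse 16, whose Becn1 level of 871 normalized counts was the lowest of all mice. For Gabarap to Becn1, mouse 13 lay below the vehicle-treated mice and within the range of the ketone ester-treated mice. For Sqstm1 to Becn1, it lay below all mice of both other groups. With mouse 13 included, the range of the semaglutide group overlapped with those of the other groups in both ratios.

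The libraries were bulk muscle, in which fewer cells of a type and less RNA per cell cannot be told apart. Defining markers of skeletal muscle fibres were abundant, at a summed 1.64e+06 to 3.83e+06 normalized counts for 7 genes over all mice, and none of the 40 markers of 9 cell types was at 0 in a whole group. Of the 7 fibre markers, limma called 3 lower with semaglutide, where edgeR called 1 and DESeq2 3. On adding the ketone ester limma called 4 of them higher, where edgeR called 4 and DESeq2 5. Of the 4 fibroblast markers, limma called 3 lower with semaglutide and 2 higher on adding the ketone ester. Over all genes tested, limma called 13.2% lower with semaglutide and 9.09% higher on adding the ketone ester. The 5 red blood cell genes summed to 1356 to 2291 normalized counts with vehicle, 3148 in semaglutide mouse 13, 50.5 to 1505 in the other 4 and 2849 to 5558 with the ketone ester, and 4 of the 5 were called higher on adding the ketone ester by limma, 1 by edgeR and 0 by DESeq2. Of 3 tendon markers, 2 were called lower with semaglutide, and 1 was called higher and 1 lower on adding the ketone ester, and 1 of 4 endothelial markers was called higher then. Markers of macrophages (6), adipocytes (5), Schwann cells (4) and satellite cells (2) had 0 calls in limma, edgeR or DESeq2 in any comparison, with 1 adipocyte marker at an unadjusted p under 0.05. The part of these shifts in the results for the 10 genes was not tested.

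GENCODE places genes on the opposite strand over exons of 5 of the 10, and the strand setting of the authors' counting is not given in the sources used here. Of these partners Cntd1 over Becn1 had 1.93 to 14.5 normalized counts and Mrnip over Sqstm1 25.2 to 68.0, far below the genes they overlap. Zcchc14 shares 58 bases with Map1lc3b and had 510 to 673 normalized counts. Gm45507 over Bnip3 and 1700101I11Rik over Gabarapl1 were not analysed here.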

How the data were processed

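RNA of gastrocnemius muscle was measured in 13 mice, 5 vehicle, 5 semaglutide and 3 semaglutide + ketone ester. The authors prepared stranded mRNA libraries, used DRAGEN to align paired-end reads to mm10 and deposited a table of normalized counts, a depth-scaled signal per gene. The submitters' processing notes also name DESeq2, while the gene annotation and strand setting are not given in the sources used here. Dividing by the smallest step of a column gave whole reads for 100% of values (tolerance 0.01). Intervals are 95% confidence intervals for the difference of group means on the log2 scale, with their error taken from the spread among mice.

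Genes with a mean of at least 10 normalized counts (12303 of 21868) were tested with limma 3.58.1 in R 4.3.3 on log2(normalized count + 1), with the 3 groups in 1 model, two-sided, and Benjamini-Hochberg adjustment over all genes tested, so fold changes are on that scale. The replicate was the mouse. A gene was called at an adjusted p under 0.05. edgeR 4.0.16 and DESeq2 1.42.0 on recovered reads, other pseudocounts (0.5, 10), filters (none, 50), scalings, weights per mouse and leaving out each mouse were alternatives. An eBayes trend was added after seeing the data. A criterion patterned on the study's methods used a one-way analysis of variance.

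The 10 genes, the role lists and the markers were chosen with earlier results of these data known. Of each role list, up to 4 called genes with the largest log2 fold change between semaglutide and vehicle were to be named, besides list genes called between semaglutide + ketone ester and vehicle and the 5 genes most like the member with the largest change. Not every gene that this rule selects is reported here. No pair of libraries within a group agreed within sampling noise, and all carried 1 batch label. Coordinates are from GENCODE M21 (GRCm38). Scripts were tested on simulated data.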

Additional observations from a re-analysis of the deposited data

Results flagged for a closer look

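Of the 20 sets of 4 or more mice tested (the 10 genes in the vehicle and semaglutide groups), 1 held a sample far from the others. For Map1lc3a, semaglutide mouse 14 had 3742 normalized counts while the other 4 semaglutide-treated mice had 2957 to 3163, a gap of 0.738 of the group's range beside a critical value of 0.71 for 5 samples (Dixon's criterion). Chance gives about 1 such set in 20. Semaglutide mouse 13, which stood apart on the first principal component, was not marked by this criterion in any of the 10 genes.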

How the results depend on the processing

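Bnip3 and Gabarap were called between semaglutide and vehicle in 26 of 26 alternatives, and between semaglutide + ketone ester and semaglutide in 21 and 23 of 26. The 2 members called in the first comparison became 4 with columns rescaled to equal totals, with edgeR and with DESeq2, 5 with a weight per mouse, and 2 to 6 when single mice were left out. The share of all genes tested that was called higher was then 26.5%, 14.4%, 15.1% and 19.4%, beside 11.9%. The 2 called in the second became 7 with equal totals and with weights, 4 with DESeq2, 0 with only the 2 groups in the fit, and 0 to 6 when single mice were left out. The share of all genes called lower was then 29.2%, 18%, 12.9% and 2.93%, beside 9.3%. The 6 came without semaglutide mouse 13 and the 0 without ketone ester mouse 21 or 22. Of the other autophagy genes, 19 in the first comparison became 40 with equal totals and 44 with weights (15 to 42 without 1 mouse). The share of all genes tested called in either direction was then 34.1% and 39.4%, beside 25.1%. In the second, 19 became 10 with no filter, 50 with equal totals, 43 with weights and 5 with 2 groups only (4 to 37). The share of all genes tested was then 9.88%, 34.1%, 34.8% and 6.1%, beside 18.4%. For semaglutide + ketone ester against vehicle, 1 became 0 with no filter and with only the 2 groups. It became 2 with a pseudocount of 10, a mean of at least 50, equal totals, quantile normalization, weights, edgeR and DESeq2. It also became 2 with eBayes with trend (added after seeing the data) and with trend and robust fitting (0 to 2 without 1 mouse). The share of all genes tested was 0.0237% to 1.67% under these settings, beside 0.236%. By the criterion patterned on the study's methods, 2 members became 1 on the log2 scale and 4 with equal totals (1 to 5). That criterion marked 16.1% of all genes tested, and its share under these alternatives is not reported here. The cause of these shifts was not tested beyond the smaller groups and gene sets that the alternatives use.

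Of 780 fold changes under alternatives, 711 kept direction and side of the threshold, 35 passed it newly, 8 lost it and 26 changed sign, none of those past the threshold. Against vehicle, Ulk1 (main -0.10) became 0.074 with equal totals and 0.073 with weights (-0.20 to 0.013 leaving out a mouse), Wipi1 (-0.04) became 0.14 and 0.054 (-0.098 to 0.088), and Becn1 (-0.0032) became 0.17 and 0.013, 0.0084 with TMM, 0.015 with edgeR and 0.0092 with DESeq2 (-0.038 to 0.072). Wipi1 from semaglutide to semaglutide + ketone ester became 0.043 under quantile normalization (-0.13 to 0.097), and between semaglutide + ketone ester and vehicle 0.0051 (-0.11 to 0.060). In that last comparison, leaving out single mice gave -0.16 to 0.028 for Map1lc3a, -0.12 to 0.012 for Gabarap and -0.068 to 0.043 for Bnip3l. With 3 ketone ester-treated mice, leaving out 1 leaves 2. Where a printed interval spans 0, differences of the sizes it holds are not excluded. No paired analysis was possible because the mouse numbers differ between groups.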
